A study of Yarrowia lipolytica with 35 samples.

Results

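The genes described are those of pyruvate dehydrogenase and of the oxidative enzymes of the citrate cycle in the yeast Yarrowia lipolytica. They were chosen by a list of 9 locus tags, and 8 of these were analysed among the 7132 genes of the count table. The 8 are PDA1 (YALI0F20702g), PDB1 (YALI0E27005g), IDH1 (YALI0E05137g), IDP (YALI0F04095g), KGD1 (YALI0E33517g), KGD2 (YALI0E16929g), LSC1 (YALI0D04741g) and SDH1 (YALI0D11374g), while the ninth, the fumarase gene FUM1 (YALI0C16776g), was not analysed here. The files pair locus tags with numeric gene identifiers and not with symbols or products, so the symbols are published names whose pairing with the tags could not be checked, and each role given below rests on that pairing.

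RNA sequencing counts came from 35 libraries of bioreactor cultures of the strains DSM-21175 and DSM-3286 fed glycerol or glucose alone. Each strain was sampled on each carbon source in stationary phase, reached under nitrogen limitation at 32 h, with cultures held at pH 3.5 or pH 5.5. Growth phase was sampled at pH 5.5 only, at 8 h for glycerol cultures and at 12 h for glucose cultures. Of the 12 groups, 11 hold 3 replicates, which the labels call biological, and stationary DSM-3286 on glucose at pH 5.5 holds 2. All cultures shared the species and the bioreactor format, the strains are known here only by their collection numbers, the phase cannot be told apart from the hour and the nitrogen supply, and in growth phase the carbon source cannot be told apart from the hour.

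Pyruvate dehydrogenase joins glycolysis to the mitochondrion: its E1 component, built from an alpha and a beta subunit, removes carbon dioxide from pyruvate, and the later components pass the acetyl group to coenzyme A. The citrate cycle then oxidises that acetyl group through isocitrate, 2-oxoglutarate, succinyl-CoA and succinate, and supplies reduced cofactors to respiration and carbon skeletons to biosynthesis. Y. lipolytica is known for secreting citrate and for storing lipid when nitrogen runs out, and the mitochondrial isocitrate dehydrogenase step, which depends on AMP in oleaginous yeasts, is the point at which carbon either stays in the cycle or leaves it as citrate.

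Library totals ran from 6.7 to 25.7 M reads (M, megareads) with a median of 12.5 M, and the lowest count of any of the 8 genes in any library was 1791 reads, so counting error was small for all of them. Levels are CPM, read counts per 1 M reads of the library total after scaling, which are shares of the messenger RNA in a culture, so that fewer cells expressing a gene and less RNA per cell cannot be told apart. In DSM-21175, 5 libraries stood apart from their replicates: glycerol growth replicate 2, glucose growth replicate 3, and replicate 3 of glycerol stationary pH 5.5, glucose stationary pH 5.5 and glycerol stationary pH 3.5. Changes are log2 fold changes ± SE from edgeR's quasi-likelihood fit to all libraries, averaged over the matched groups, and a gene is called at a Benjamini-Hochberg adjusted p under 0.05 over the 6537 genes tested.

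Per length, PDA1, the alpha subunit of the E1 component of pyruvate dehydrogenase, had the highest transcript level of the 8 genes in 11 of the 12 groups. Its median over the group means was 1170.1 FPKM, which are CPM divided by the coding length in kilobases. LSC1, a subunit of succinyl-CoA ligase, which makes succinate from succinyl-CoA, followed with 799 FPKM and ranked first in the remaining group, DSM-3286 on glycerol at pH 3.5. The sources used here do not say whether this tag encodes the alpha or the beta subunit. IDP, the NADP-dependent isocitrate dehydrogenase, had a median of 546 FPKM, PDB1, the beta subunit of the E1 component, 532 FPKM, and IDH1, a subunit of the NAD-dependent isocitrate dehydrogenase, 505 FPKM. The lowest medians on this scale were 252 FPKM for KGD2, the succinyltransferase (E2) of 2-oxoglutarate dehydrogenase, 209.8 FPKM for KGD1, the E1 component of the same complex, and 194 FPKM for SDH1, the flavoprotein subunit of succinate dehydrogenase.

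The genes differed in how far their levels moved over the 12 groups. PDB1 moved most, with a highest group mean 5.36 times its lowest: 180.0 ± 13.1 CPM in DSM-21175 on glucose in stationary phase at pH 5.5 and 965 ± 17.2 CPM in DSM-3286 on glucose in growth phase (SD, n = 3 each). LSC1 came next with a ratio of 4.36, between 445 ± 58.2 CPM in DSM-21175 on glycerol in stationary phase at pH 5.5 and 1942 ± 147 CPM in DSM-3286 on glycerol at pH 3.5 (SD, n = 3 each). The ratios were 2.90 for IDP, 2.86 for KGD2 and 2.79 for IDH1, and the smallest were 2.06 for SDH1, 1.92 for PDA1 and 1.84 for KGD1. All 8 genes had their lowest group mean in stationary phase at pH 5.5, for 6 of them in DSM-21175 and for IDP and KGD2 in DSM-3286 on glycerol. For PDA1, IDH1 and SDH1 the lowest group did not overlap with the one next above it. The order of most neighbouring groups was not resolved by the replicates: of the 11 neighbouring pairs in each gene's order, the replicate ranges were separate in 5 for PDA1, 4 for IDH1, 3 each for PDB1, IDP, KGD1 and LSC1, and 2 each for KGD2 and SDH1.

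**Figure D1:**
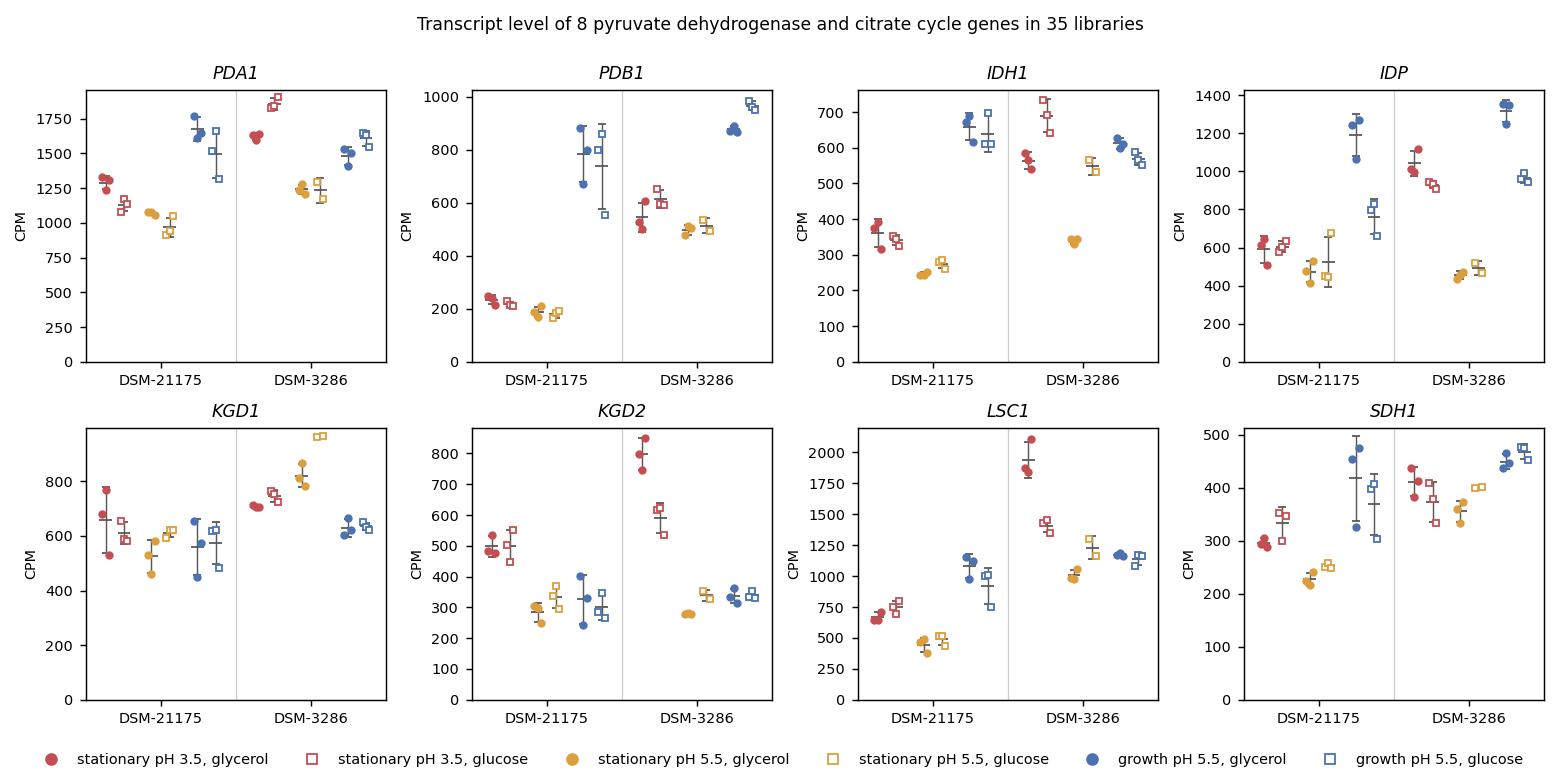
Transcript level in CPM (vertical axes, starting at 0) of the 8 genes in all 35 libraries, with 1 point per library and bars for the mean ± SD of each of the 12 groups. The stationary groups of DSM-21175 lie far below the other groups for PDB1, at 165 to 248 CPM, while KGD2 is highest in the groups at pH 3.5.

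In stationary phase 6 of the 8 genes were lower than in growth phase at pH 5.5, KGD1 was higher and KGD2 did not pass the test. Among all genes tested, 86.1% were called in this comparison, 43.2% lower and 42.9% higher, so that most genes of the yeast changed with phase. The median log2 fold change of the 8 genes was -0.54, against 0.01 for all genes tested. The isocitrate dehydrogenases and the E1 beta subunit changed most. The share of reads in genes listed without protein-coding tags was 0.0509 to 0.215% in stationary phase at pH 5.5 and 0.0419 to 0.0979% in growth phase, and its part in these changes was not tested.

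PDB1 showed the largest change with phase among the 8 genes. In DSM-21175 it was at 186, 169 and 208 CPM on glycerol in stationary phase, against 879.7, 670.1 and 799.9 CPM in growth phase. On glucose the same strain had 165, 184 and 191 CPM in stationary phase, against 798, 859 and 554 CPM in growth phase. All 6 stationary libraries lay below all 6 growth libraries, among which glycerol growth replicate 2 and glucose growth replicate 3 were lowest of their groups. In DSM-3286 the values were 477, 513 and 503 CPM on glycerol in stationary phase, against 871, 890.1 and 868 CPM in growth phase. On glucose DSM-3286 had 533 and 493 CPM in stationary phase, against 983, 962 and 949 CPM in growth phase. The groups did not overlap in this strain either. The fold change over the 4 pairs of groups was -1.46 ± 0.06 (edgeR, Benjamini-Hochberg adjusted p = 4.08e-19), which is 2.74-fold lower in stationary phase.

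The partner subunit PDA1 fell less, by 0.48 on the log2 scale (SE 0.04, edgeR, Benjamini-Hochberg adjusted p = 2.93e-12), with all stationary libraries below the growth libraries in each of the 4 pairs. In DSM-21175 PDA1 had 1076, 1076 and 1055 CPM on glycerol in stationary phase, against 1771, 1609 and 1649 CPM in growth phase. In DSM-3286 on glycerol it had 1238, 1277 and 1206 CPM in stationary phase, against 1535, 1410.0 and 1504 CPM in growth phase. PDA1 thus moved in the same direction as PDB1 and by a smaller amount, a difference tested below as a subunit ratio.

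At the isocitrate step, IDP fell with a change of -1.10 ± 0.06 on the log2 scale (edgeR, Benjamini-Hochberg adjusted p = 1.09e-15) and IDH1 with -0.89 ± 0.04 (adjusted p = 3.51e-18). IDP had 433, 456 and 473 CPM in DSM-3286 on glycerol in stationary phase, against 1357, 1249 and 1348 CPM in growth phase, its widest separation. In DSM-21175 on glucose IDP had 448, 447 and 676 CPM in stationary phase, against 799, 830.0 and 659 CPM in growth phase. Those last groups overlapped through replicate 3, the highest stationary library and one of the 5 that stood apart. IDH1 differed between the strains: in DSM-21175 on glycerol it had 244, 244 and 253 CPM in stationary phase, against 672, 690.3 and 616 CPM in growth phase, without overlap. In DSM-3286 on glucose IDH1 had 565 and 531 CPM in stationary phase, against 587, 566 and 552 CPM in growth phase, and these ranges overlapped.

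Of the 2-oxoglutarate dehydrogenase genes KGD1 passed the test and KGD2 did not. KGD1 was higher in stationary phase, at 0.25 ± 0.06 (edgeR, Benjamini-Hochberg adjusted p = 0.000525), a value that was 0.16 (adjusted p = 0.000766) without the 5 libraries that stood apart. In DSM-3286 on glucose KGD1 had 962 and 968 CPM in stationary phase, against 649, 635 and 623 CPM in growth phase, and in DSM-3286 on glycerol 812, 868 and 783 CPM in stationary phase, against 602, 665 and 622 CPM in growth phase. The rise was seen without overlap in DSM-3286, while the values in DSM-21175 were 0.09 on glucose and -0.09 on glycerol. KGD2, its E2 partner, had a value of -0.08 ± 0.07 (adjusted p = 0.272) and, among the alternatives run, passed only without DSM-21175 glycerol growth replicate 2, at -0.12 (adjusted p = 0.049). LSC1 fell by 0.58 on the log2 scale and SDH1 by 0.50 (SE 0.05 and 0.06, edgeR, Benjamini-Hochberg adjusted p = 6.24e-11 for LSC1 and 3.75e-09 for SDH1). In DSM-21175 LSC1 fell without overlap in both pairs, with log2 fold changes of -1.28 on glycerol and -0.91 on glucose. In DSM-3286 its value was -0.22 on glycerol, where the groups did not overlap either but the test was not passed, and 0.11 on glucose, where they overlapped.

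Of 9 other genes of the same pathway, 6 were lower in stationary phase, where 43.2% of all genes were, and 2 were higher, where 42.9% were. The remaining gene did not pass the test. These 9 are LAT1 and LPD1 (the later pyruvate dehydrogenase components, LPD1 also serving 2-oxoglutarate dehydrogenase), CIT1 (citrate synthase), ACO1 (aconitase), IDH2 (isocitrate dehydrogenase), LSC2 (succinyl-CoA ligase), SDH2 (the iron-sulfur subunit of succinate dehydrogenase), MDH1 (malate dehydrogenase) and PYC1 (pyruvate carboxylase, which makes oxaloacetate). PYC1 had the largest rise, 1.11 ± 0.09, and IDH2, the partner subunit of IDH1, the largest fall, -0.90 ± 0.05, close to the -0.89 of IDH1. Not all partner subunits moved alike. In DSM-21175 on both carbon sources LSC1 was lower without overlap, while LSC2 overlapped between the phases. In the same pairs SDH1 and SDH2 were both lower without overlap.

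**Figure D2:**
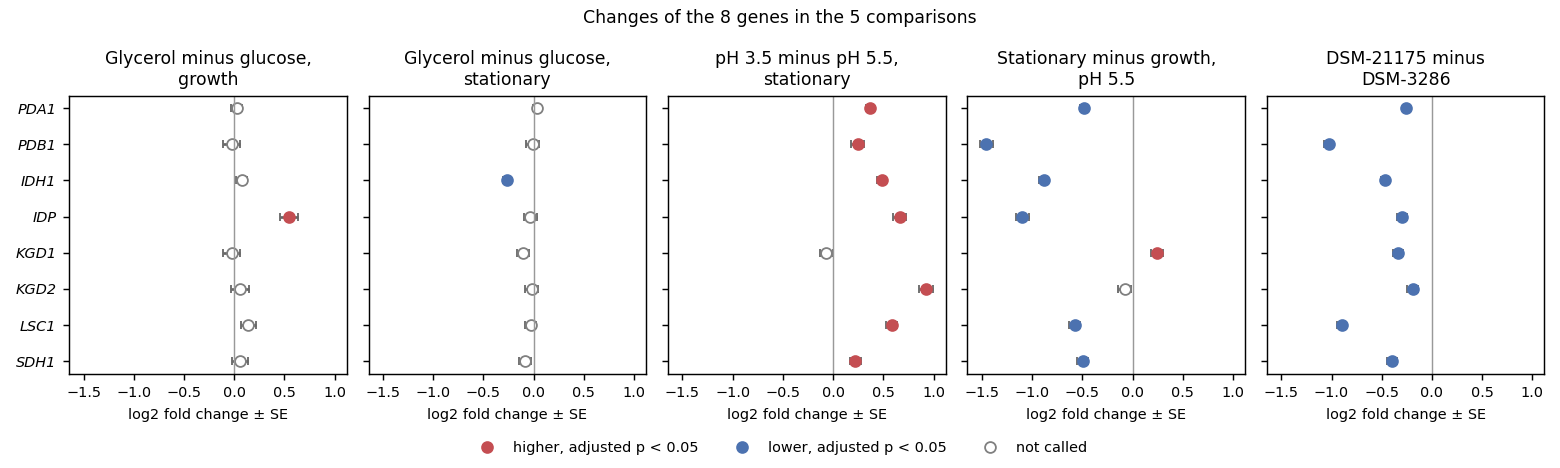
Log2 fold change ± SE (horizontal axes) of the 8 genes in the 5 comparisons, each averaged over its matched groups, with filled points for genes called at a Benjamini-Hochberg adjusted p under 0.05. Most points lie left of 0 for stationary minus growth phase and for DSM-21175 minus DSM-3286, right of 0 for pH 3.5 minus pH 5.5, and near 0 for the 2 comparisons of glycerol with glucose.

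The fall with phase was larger in DSM-21175 than in DSM-3286 for most of the 8 genes. The difference between the strains' changes was tested as an interaction: 6 of the 8 genes had a lower value in DSM-21175, IDP had a higher one and KGD2 did not pass, where 27.7% of all genes were called lower and 30.5% higher. PDB1 differed most, by -1.18 ± 0.12 (edgeR, Benjamini-Hochberg adjusted p = 2.53e-09), with log2 fold changes of -2.06 and -2.03 in DSM-21175 against -0.82 and -0.91 in DSM-3286, on glycerol and glucose in that order. LSC1 followed with -1.04 ± 0.11 and IDH1 with -0.87 ± 0.08 (adjusted p = 3.65e-09 for LSC1 and 5.47e-10 for IDH1). The differences for KGD1, SDH1 and PDA1 were between -0.49 and -0.32. KGD1 rose without overlap in DSM-3286 and overlapped between the phases in DSM-21175, so its difference was not a larger fall. The difference for SDH1 was -0.43 ± 0.11, and -0.65 without the 5 libraries that stood apart. The opposite difference of IDP, 0.32 ± 0.13 (adjusted p = 0.0342), depended on the libraries included. It was 0.01 (adjusted p = 0.959) without the 5 that stood apart and 0.13 (adjusted p = 0.27) without DSM-21175 glucose stationary pH 5.5 replicate 3 alone. Its call was also lost when any of 12 other single libraries was left out.

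Averaged over the 6 matched conditions, all 8 genes were lower in DSM-21175 than in DSM-3286. Of all genes tested, 37.5% were called lower and 80.4% in either direction, and the median of the 8 genes was -0.37 against 0.03 for all genes. PDB1 and LSC1 stood at the far end with -1.03 ± 0.05 and -0.90 ± 0.04 (edgeR, Benjamini-Hochberg adjusted p = 1.64e-17 for PDB1 and 3.21e-17 for LSC1), while KGD2 had the smallest value, -0.19 ± 0.05 (adjusted p = 0.00185). The other 5 genes lay between -0.26 for PDA1 and -0.47 for IDH1. Within the 6 conditions KGD2 was called lower in 1, with values from -0.68 to 0.03, and PDA1 in 4. On glycerol in growth phase PDA1 had 1609 to 1771 CPM in DSM-21175, against 1410 to 1535 CPM in DSM-3286. The groups were separate in the opposite direction there, but the test was not passed. At pH 5.5 the interaction above also states that, for 6 of the 8 genes, the value of DSM-21175 minus DSM-3286 was lower in stationary than in growth phase. This is a signed difference and not always a wider gap. For PDA1 on glycerol the direction changed, with 1055 to 1076 CPM in stationary DSM-21175, against 1206 to 1277 CPM in DSM-3286.

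In stationary phase PDB1 had 165 to 248 CPM (median 209, 12 libraries) in DSM-21175, against 477 to 651 CPM (median 526, 11 libraries) in DSM-3286. No DSM-21175 stationary library came near the lowest of DSM-3286, at either pH or on either carbon source. The matched log2 differences were -1.22 and -1.49 at pH 3.5 and -1.41 and -1.51 at pH 5.5, on glycerol and glucose in that order. In growth phase PDB1 had 554 to 879.7 CPM (median 799, 6 libraries) in DSM-21175, against 868 to 983 CPM (median 919.7, 6 libraries) in DSM-3286. These ranges overlapped a little, and the matched differences were -0.16 ± 0.12 on glycerol (edgeR, Benjamini-Hochberg adjusted p = 0.262) and -0.39 ± 0.12 on glucose (adjusted p = 0.00595).

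LSC1 followed the same pattern, with 379 to 799 CPM (median 580.4, 12 libraries) in stationary DSM-21175, against 976 to 2110.1 CPM (median 1346, 11 libraries) in stationary DSM-3286. The ranges were separate here too, and the matched differences ran from -0.91 on glucose at pH 3.5 to -1.54 on glycerol at pH 3.5. In growth phase the LSC1 differences were -0.12 ± 0.11 on glycerol and -0.31 ± 0.11 on glucose. For IDH1 the strains differed in stationary phase by between -0.46 and -1.02 in the 4 matched pairs, and by 0.11 and 0.17 in growth phase on glycerol and glucose, where neither value passed the test. IDH1 had 353, 345 and 325 CPM in DSM-21175 on glucose at pH 3.5, against 735, 693 and 642 CPM in DSM-3286, without overlap.

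IDP behaved in another way: its strain difference lay at pH 3.5 and on glucose in growth phase and was near 0 in stationary phase at pH 5.5. At pH 3.5 it had 616, 645 and 509.8 CPM in DSM-21175 on glycerol, against 1011, 999 and 1118 CPM in DSM-3286. At pH 5.5 in stationary phase on glycerol it had 474, 415 and 527 CPM in DSM-21175, against 433, 456 and 473 CPM in DSM-3286. The groups were well apart at the lower pH and overlapped at the higher one. KGD1, by contrast, differed between the strains chiefly in stationary phase at pH 5.5, with -0.66 ± 0.13 on glucose and -0.64 ± 0.12 on glycerol, against -0.29 ± 0.12 and -0.10 ± 0.12 at pH 3.5. Of the 9 other pathway genes 7 were lower in DSM-21175, where 37.5% of all genes were. ACO1 was higher at 0.15 ± 0.05, where 43% of all genes were, and SDH2 did not pass. PYC1 had the largest fall, -0.98 ± 0.07.

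**Figure D3:**
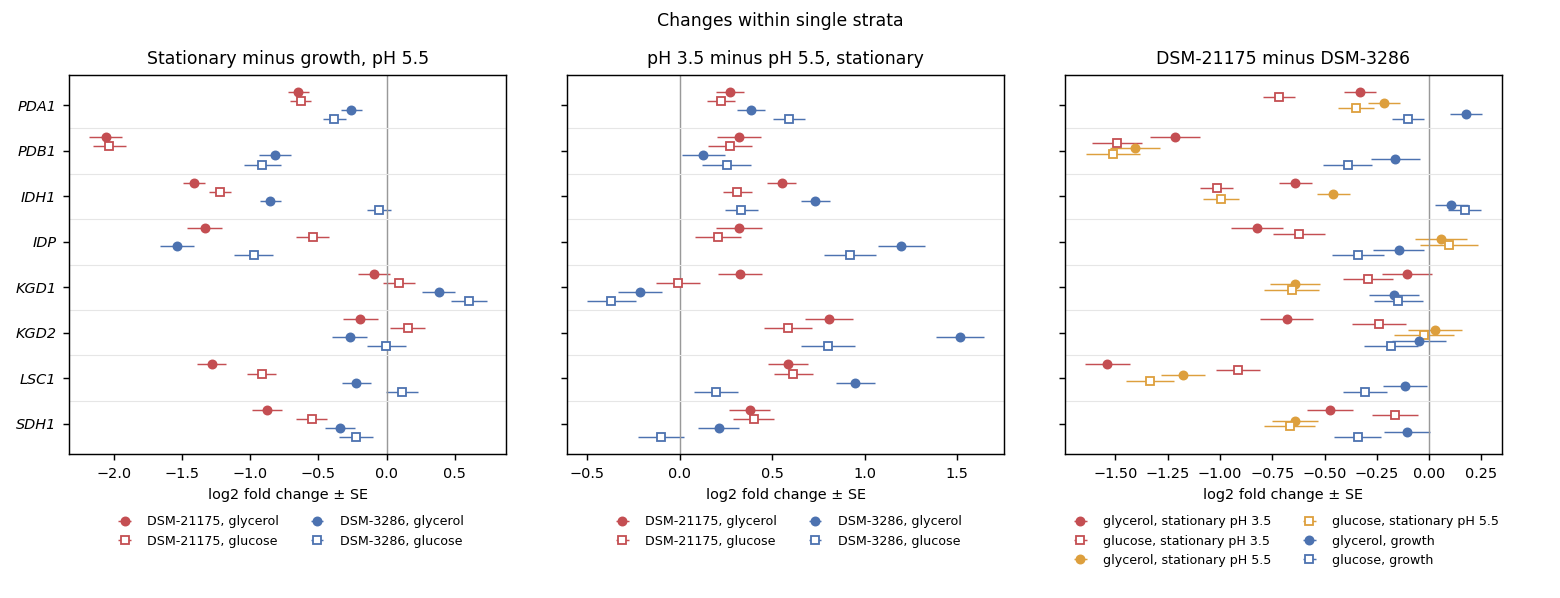
Log2 fold change ± SE (horizontal axes) of the 8 genes within single pairs of groups, for stationary minus growth phase (4 pairs), pH 3.5 minus pH 5.5 (4 pairs) and DSM-21175 minus DSM-3286 (6 pairs). PDB1 lies at -2.06 and -2.03 with phase in the pairs of DSM-21175 and at -0.82 and -0.91 in those of DSM-3286, and KGD2 lies right of 0 in all 4 pairs of pH values.

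At pH 3.5 in stationary phase 7 of the 8 genes were higher than at pH 5.5, and KGD1 did not pass the test. Over all genes tested, 34.2% were called higher and 68.5% in either direction, and the median of the 8 genes was 0.42 against -0.01 for all genes. KGD2 had the largest rise, 0.93 ± 0.07 (edgeR, Benjamini-Hochberg adjusted p = 1.22e-12), followed by IDP with 0.66 ± 0.06, LSC1 with 0.59 ± 0.05 and IDH1 with 0.48 ± 0.04. PDA1, PDB1 and SDH1 rose by 0.37, 0.24 and 0.22 on the log2 scale, and all 7 had adjusted p-values of at most 0.00113. Within single pairs of groups the rise was less uniform. PDA1, IDH1 and KGD2 were called higher in all 4 pairs, LSC1 in 3, IDP and SDH1 in 2 each and PDB1 in 1. The values ran from 0.13 to 0.32 for PDB1 and from 0.19 to 0.95 for LSC1. The share of reads in genes listed without protein-coding tags moved with pH as well: it was 0.0195 to 0.0647% at pH 3.5 and 0.0509 to 0.215% at pH 5.5 in stationary phase, and its part in these changes was not tested.

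KGD2 had 798, 745 and 852 CPM in DSM-3286 on glycerol at pH 3.5, against 278, 281 and 279 CPM at pH 5.5, which is 2.86-fold higher. In DSM-21175 on glycerol it had 482, 536 and 476 CPM at pH 3.5, against 306, 299 and 249 CPM at pH 5.5. Over both strains and carbon sources KGD2 had 447 to 852 CPM (median 543, 12 libraries) at pH 3.5, against 249 to 368 CPM (median 299, 11 libraries) at pH 5.5. Every library at pH 3.5 therefore lay above every stationary library at pH 5.5. Among the 8 genes only KGD2 had separate pooled ranges, and the share of all genes with separate ranges was not computed. KGD1, which encodes the E1 component of the same enzyme, had 529 to 767 CPM (median 705, 12 libraries) at pH 3.5, against 462 to 968 CPM (median 622, 11 libraries) at pH 5.5. Its log2 fold changes were -0.37 ± 0.13 in DSM-3286 on glucose and 0.33 ± 0.12 in DSM-21175 on glycerol, both past the threshold in opposite directions (edgeR, Benjamini-Hochberg adjusted p = 0.0235 for the fall and 0.0399 for the rise). The groups of the fall were separate, while those of the rise overlapped. In DSM-3286 on glycerol KGD1 was also lower without overlap, at 705 to 714 CPM for pH 3.5, against 783 to 868 CPM, but did not pass. In DSM-21175 on glucose the groups overlapped.

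The response to pH differed between the strains for 5 of the 8 genes: the difference of DSM-21175 minus DSM-3286 was lower for PDA1, IDP and KGD2 and higher for KGD1 and SDH1, where 20.1% of all genes were called lower and 20.9% higher. Without the 5 libraries that stood apart PDB1 passed as well, at 0.21 (adjusted p = 0.0371). The share of all genes called in that fit was not computed. IDP differed most, by -0.80 ± 0.13 (edgeR, Benjamini-Hochberg adjusted p = 1.7e-05). On glucose IDP had 578, 602 and 634 CPM in DSM-21175 at pH 3.5, against 448, 447 and 676 CPM at pH 5.5, and the ranges overlapped. In DSM-3286 on glucose it had 944, 936 and 908 CPM at pH 3.5, against 516 and 465 CPM at pH 5.5, without overlap. The difference for KGD2 was -0.46 ± 0.13 and that for KGD1 0.45 ± 0.12, so the E1 and E2 components of 2-oxoglutarate dehydrogenase had strain differences of opposite sign (adjusted p = 0.00664 for KGD2 and 0.00445 for KGD1). SDH1 rose with low pH in DSM-21175, by 0.40 ± 0.11 on glucose and 0.38 ± 0.11 on glycerol, against -0.10 ± 0.12 and 0.21 ± 0.11 in DSM-3286, a strain difference of 0.34 ± 0.11 (adjusted p = 0.0202). The difference for PDA1, -0.24 ± 0.08 (adjusted p = 0.0162), was -0.21 (adjusted p = 0.0598) without DSM-3286 glucose stationary pH 5.5 replicate 3. Among the other pathway genes 6 of 9 were higher at pH 3.5, where 34.2% of all genes were, 1 was lower, where 34.3% were, and 2 did not pass. MDH1 rose most, by 1.44 ± 0.17, and PYC1 fell by 0.48 (SE 0.09).

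The carbon source comparison had the fewest called genes, 1 of the 8 in growth phase and 1 in stationary phase. In growth phase this was IDP, which was higher on glycerol than on glucose by 0.55 ± 0.09 (edgeR, Benjamini-Hochberg adjusted p = 3.51e-06), where 31.8% of all genes were called higher and 62.6% in either direction. IDP had 1241, 1064 and 1268 CPM on glycerol in growing DSM-21175, against 799, 830.0 and 659 CPM on glucose. In growing DSM-3286 it had 1357, 1249 and 1348 CPM on glycerol, against 959, 992 and 942 CPM on glucose. All glycerol libraries lay above all glucose libraries of the same strain. The other 7 genes had log2 fold changes between -0.03 and 0.14, and the median of the 8 was 0.06 against -0.01 for all genes. The glycerol cultures were sampled at 8 h and the glucose cultures at 12 h. The share of reads in genes without protein-coding tags was 0.0581 to 0.0979% on glycerol and 0.0419 to 0.0509% on glucose in growth phase, and its part in the change of IDP was not tested.

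At 32 h, the stationary sampling time of both carbon sources, the gene called was IDH1, lower on glycerol at -0.26 ± 0.04 on the log2 scale (edgeR, Benjamini-Hochberg adjusted p = 7.68e-06). Of all genes tested, 21% were called lower and 43.2% in either direction. IDH1 had 343, 329.7 and 345 CPM on glycerol in DSM-3286 at pH 5.5, against 565 and 531 CPM on glucose. At pH 3.5 in the same strain it had 585, 566 and 540.3 CPM on glycerol, against 735, 693 and 642 CPM on glucose. The groups were separate in both pairs of DSM-3286. In DSM-21175 they were separate at pH 5.5, with 244, 244 and 253 CPM on glycerol, against 279.6, 284 and 260.3 CPM on glucose, and overlapped at pH 3.5, with log2 fold changes of -0.15 and 0.09 that did not pass the test. The difference between the strains for IDH1 was 0.46 ± 0.08 (adjusted p = 0.000114), and PDA1 also passed with 0.26 ± 0.08 (adjusted p = 0.012); 2 of 8 genes were thus called higher, where 15.6% of all genes were called higher. LSC1 was called lower in this contrast without the 5 libraries that stood apart, at -0.25 (adjusted p = 0.0162), and without DSM-21175 glucose stationary pH 5.5 replicate 3 alone, at -0.27 (adjusted p = 0.0479). The median of the 8 genes in stationary phase was -0.03 against 0.01 for all genes, and without the 5 libraries that stood apart SDH1 also passed, at -0.10 (adjusted p = 0.0435).

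The effect of glycerol changed with phase and with pH for some genes. In stationary phase at pH 5.5 it was lower than in growth phase for IDP by -0.68 ± 0.13, for IDH1 by -0.50 ± 0.08 and for LSC1 by -0.35 ± 0.11 on the log2 scale (edgeR, Benjamini-Hochberg adjusted p = 6.42e-05 for IDP, 1.02e-05 for IDH1 and 0.00842 for LSC1), so that 3 of 8 genes were called lower, where 26% of all genes were called lower. KGD1, KGD2 and SDH1 joined them without the 5 libraries that stood apart, at -0.23, -0.33 and -0.24. The share of all genes called in that fit was not computed. At pH 3.5 the effect of glycerol was higher than at pH 5.5 for KGD2 by 0.47 ± 0.13, LSC1 by 0.36 ± 0.11 and IDH1 by 0.32 ± 0.08 (adjusted p = 0.013, 0.0189 and 0.00627 in that order), which is 3 of 8 genes, where 9.81% of all genes were called higher. The value for LSC1 was 0.32 (adjusted p = 0.0603) without DSM-3286 glucose stationary pH 5.5 replicate 1, and KGD1 also passed without the 5 libraries that stood apart, at 0.35. KGD2 had its highest level of all groups on glycerol at pH 3.5 in DSM-3286, as the values above show. In DSM-3286 the effect of glycerol on LSC1 was 0.46 at pH 3.5 and -0.29 at pH 5.5, while in DSM-21175 it was -0.16 and -0.13, so the averaged value for LSC1 came from DSM-3286, and the difference between the strains in this respect was not tested. For KGD2 the effects were 0.43 and -0.28 in DSM-3286, and -0.01 and -0.23 in DSM-21175, at pH 3.5 and pH 5.5 in that order. In DSM-3286 on glycerol at pH 3.5 LSC1 had 1875, 1841 and 2110.1 CPM, against 1426, 1455 and 1346 CPM on glucose in the same strain at the same pH, without overlap.

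Whether the strains differed in their response to glycerol during growth was also tested, and 0 of the 8 genes passed in edgeR, where 9.82% of all genes were called in either direction. At an unadjusted p under 0.05 the count was 1 of 8, and DESeq2 called 1 of 8, PDA1 in that case (0.31, adjusted p = 0.0226). The share of all genes was not computed for either count. The edgeR value for PDA1 was 0.28 ± 0.11 (Benjamini-Hochberg adjusted p = 0.104). In simulated counts this contrast called 72 of 100 genes given a 2-fold change, the fewest of the contrasts tried.

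Of the other pathway genes, 1 of 9 was higher on glycerol in growth phase, where 31.8% of all genes were, and 3 were lower, where 30.7% were. The remaining 5 did not pass the test. SDH2 was at 0.27 ± 0.07 and PYC1 at -0.76 ± 0.12. In stationary phase 5 of 9 were lower on glycerol, where 21% of all genes were, and 4 did not pass, with CIT1 at -0.41 ± 0.07.

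The subunit genes of the same enzyme were then compared within each library as a ratio per base of coding length, a measure chosen after the values had been seen. The ratio of PDB1 to PDA1 was 0.21 ± 0.0245 in DSM-21175 on glycerol in stationary phase at pH 5.5, against 0.556 ± 0.0518 in growth phase (SD, n = 3 each). In DSM-3286 on glycerol it was 0.479 ± 0.019 in stationary phase at pH 5.5, against 0.706 ± 0.0412 in growth phase (SD, n = 3 each). The group means in stationary phase ran from 0.210 to 0.230 in DSM-21175, against 0.394 to 0.497 in DSM-3286, and in growth phase from 0.556 to 0.582 in DSM-21175, against 0.706 to 0.716 in DSM-3286. The difference in the log2 ratio was -0.97 for stationary minus growth phase and -1.0 for DSM-21175 minus DSM-3286 in stationary phase. Both had p = 1.25e-05, the smallest that the exact two-sided permutation of libraries within matched groups can give over 80000 arrangements, and an adjusted p of 3.33e-05 over the 8 ratio tests. In each of the 4 matched pairs the direction was the same. The PDB1 to PDA1 ratio differed by -0.12 between pH 3.5 and pH 5.5 (exact permutation p = 0.0572, adjusted p = 0.0915) and by -0.05 between glycerol and glucose in stationary phase (exact permutation p = 0.242), and neither passed. With pH 2 of the 4 pairs had the direction of the mean, both in DSM-3286: on glycerol its libraries had ratios of 0.375 to 0.441 at pH 3.5, against 0.460 to 0.498 at pH 5.5, and on glucose 0.369 to 0.425 at pH 3.5, against 0.491 to 0.502 at pH 5.5, without overlap. In DSM-21175 the ranges overlapped, at 0.196 to 0.232 for pH 3.5, against 0.187 to 0.236 for pH 5.5 on glycerol, and 0.218 to 0.253 for pH 3.5, against 0.216 to 0.232 for pH 5.5 on glucose. The difference between the strains in this ratio's response to pH was not tested.

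For 2-oxoglutarate dehydrogenase the ratio of KGD2 to KGD1 moved with pH. Its group means ran from 1.73 to 2.53 at pH 3.5, against 0.764 to 1.23 at pH 5.5 in stationary phase. The log2 ratio was higher by 1.0 at pH 3.5 (exact permutation p = 1.25e-05, the smallest possible, adjusted p = 3.33e-05), with the same direction in all 4 pairs. In DSM-3286 on glycerol the ratio was 2.53 ± 0.17 at pH 3.5, against 0.764 ± 0.0367 at pH 5.5 (SD, n = 3 each), and in DSM-21175 on glycerol it was 1.73 ± 0.254 at pH 3.5, against 1.23 ± 0.251 at pH 5.5 (SD, n = 3 each). With phase the log2 ratio of KGD2 to KGD1 differed by -0.32, lower in stationary phase at pH 5.5 (exact permutation p = 0.00492, adjusted p = 0.00984), with 3 of 4 pairs in that direction. In DSM-3286 on glycerol its libraries had 0.726 to 0.7996 in stationary phase, against 1.136 to 1.242 in growth phase. On glucose DSM-3286 had 0.757 to 0.821, against 1.154 to 1.251, and neither pair overlapped. In DSM-21175 the ranges overlapped, at 0.958 to 1.451, against 1.217 to 1.382 on glycerol, and 1.066 to 1.332, against 1.042 to 1.244 on glucose. The difference between the strains in this change was not tested. Differences of 0.20 between the strains in stationary phase and 0.09 between the carbon sources did not pass (exact permutation p = 0.162 and 0.295). The strain difference had the direction of its mean in 3 of 4 pairs. At pH 5.5 the stationary ratios above were higher in DSM-21175 on both carbon sources, without overlap. On glycerol at pH 3.5 they were lower in DSM-21175, at 1.567 to 2.018, against 2.373 to 2.71, without overlap. On glucose at pH 3.5 the ranges overlapped, at 1.699 to 2.123, against 1.661 to 1.851. The carbon source difference had the direction of its mean in 1 of 4 pairs, DSM-3286 at pH 3.5.

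**Figure D4:**
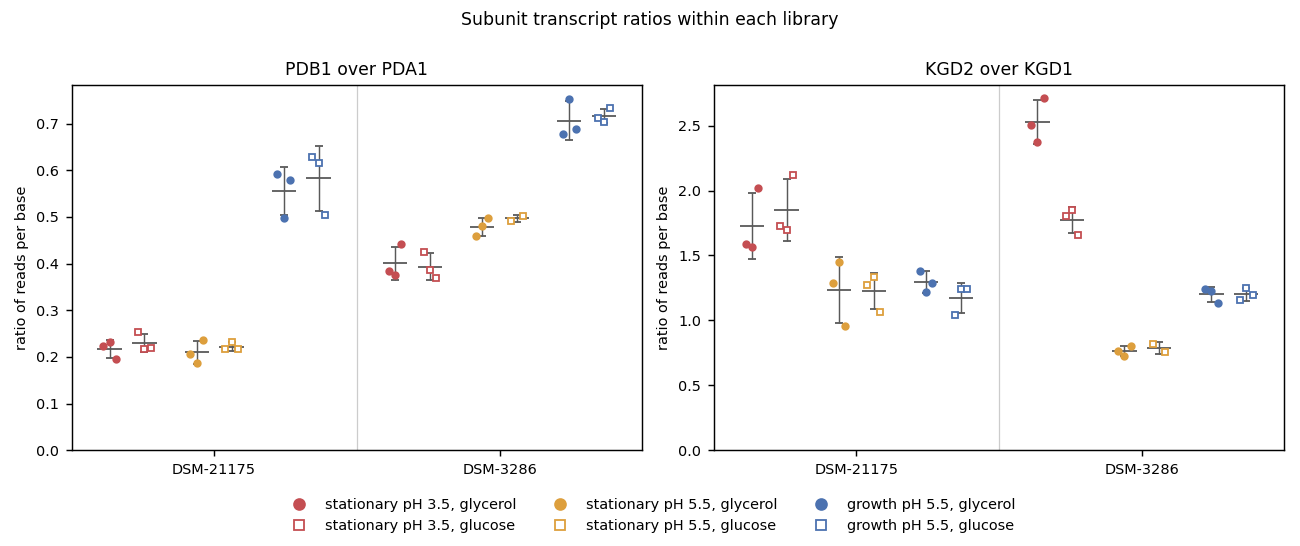
Ratio of reads per base of coding length (vertical axes, starting at 0) for PDB1 over PDA1 and for KGD2 over KGD1, with 1 point per library and bars for the mean ± SD of each of the 12 groups. The first ratio is lowest in stationary DSM-21175, at group means of 0.210 to 0.230, and the second is highest at pH 3.5, at group means of 1.73 to 2.53.

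Across the 12 group means of log2 CPM the 8 genes fell into unlike profiles. The 15 pairs among the 6 genes other than KGD1 and KGD2 had Pearson r between 0.63 and 0.91, with a median of 0.82. The 13 pairs that include KGD1 or KGD2 had r between -0.25 and 0.52, with a median of 0.20. These are descriptions over groups that share strains, cultures and sequencing, and the split into 6 and 2 genes was made after the values were seen. The genes most like the mean profile of the 8 over the 12 groups, among 6287 compared, had r between 0.95 and 0.98. The 2 most alike were YALI0D12584g and YALI0B02728g, which the files do not pair with a name.

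**Figure D5:**
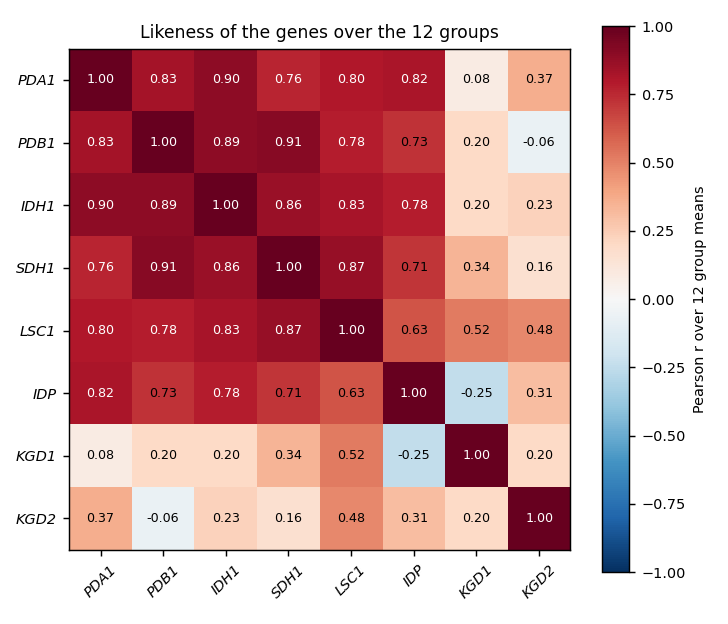
Pearson r between the 8 genes over the 12 group means of log2 CPM, as a colour from low to high with the value in each cell. The 6 genes other than KGD1 and KGD2 form a block with r of 0.63 or more, and KGD1 and KGD2 lie outside it at 0.52 or less.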

How the data were processed

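RNA was sequenced from bioreactor cultures in 35 libraries, and the labels gave the group and replicate number of each. Per the labels' protocols, cells were disrupted mechanically, RNA was column-purified, and library preparation was strand-specific after poly(A) selection. The authors deposited whole-number counts of reads per gene, named raw in the file headers, and log2 values that matched log2(FPKM + 1) computed from the counts and the effective lengths within 0.02 for 99.9% of values. Tools listed in the submitters' processing notes, with no role, are featureCounts 1.5.1, edgeR and BWA 0.7.12-r1039. The genome build is not given in the sources used here, nor is the strand setting of the counting, so reads of overlapping or near-identical genes may be shared.

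In R 4.3.3 with edgeR 4.0.16, genes passing filterByExpr (6537 of 7132, all 8 genes described among them) were scaled by TMM, and a robust quasi-likelihood model with 12 group coefficients was fitted to all libraries (23 residual degrees of freedom, biological coefficient of variation 14.8%). Benjamini-Hochberg adjustment covered all genes tested, and genes with an adjusted p under 0.05 are called. The SE is the size of the log2 fold change divided by the square root of F. CPM use TMM-scaled totals, and FPKM divide by effective coding length. Each comparison averages its matched groups, and 6 further contrasts test differences between changes. Alternatives tried: RLE scaling, the unfiltered table, DESeq2 1.42.0, limma 3.58.1 on the deposited log2 values, a fit restricted to the libraries compared, a term for the replicate number (block), and leave-one-out fits. A further alternative leaves out the 5 libraries that stood apart, whose correlation with their replicates was lower by more than 0.005. This one and the subunit ratios were chosen after seeing the data. The ratios were tested by exact two-sided permutation within matched groups. The fits were tested on simulated counts, where 72 to 99 of 100 genes given a 2-fold change were called, depending on the contrast. Over 34 replicate pairs the lowest chi-square per gene was 3.37, so none matched within counting noise.

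The genes and lists were chosen with earlier results of these data known. The genes named are all 8 analysed, the other pathway genes with the largest called change in either direction, and the genes most like the mean profile of the 8. The pathway list was paired with tags from memory of published names. FUM1 was not analysed here. The reference gene table carries no symbols for these tags and was not used.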

Additional observations from a re-analysis of the deposited data

Results flagged for a closer look

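For 20 values the change of a gene differed between conditions by a test of that difference (edgeR, Benjamini-Hochberg adjusted p under 0.05 over all genes tested), and each is given here as a log2 difference ± SE.

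Between DSM-21175 and DSM-3286, the change from growth to stationary phase differed for 7 of the 8 genes, where 27.7% of all genes were called lower and 30.5% higher. Of these, IDP was at 0.01 (adjusted p = 0.959) without the 5 libraries that stood apart. The differences were -0.32 ± 0.08 for PDA1, -1.18 ± 0.12 for PDB1, -0.87 ± 0.08 for IDH1, 0.32 ± 0.13 for IDP, -0.49 ± 0.12 for KGD1, -1.04 ± 0.11 for LSC1 and -0.43 ± 0.11 for SDH1. The change with low pH differed between the strains for 5 genes, by -0.24 ± 0.08 for PDA1, -0.80 ± 0.13 for IDP, 0.45 ± 0.12 for KGD1, -0.46 ± 0.13 for KGD2 and 0.34 ± 0.11 for SDH1. Of all genes, 20.1% were called lower and 20.9% higher in that contrast. The change with glycerol in stationary phase differed between the strains by 0.26 ± 0.08 for PDA1 and 0.46 ± 0.08 for IDH1. Here 15.6% of all genes were called higher.

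Between stationary phase at pH 5.5 and growth phase, the change with glycerol differed by -0.50 ± 0.08 for IDH1, -0.68 ± 0.13 for IDP and -0.35 ± 0.11 for LSC1. For that difference 26% of all genes were called lower. Between pH 3.5 and pH 5.5 the change with glycerol differed by 0.32 ± 0.08 for IDH1, 0.47 ± 0.13 for KGD2 and 0.36 ± 0.11 for LSC1. There 9.81% of all genes were called higher.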

How the results depend on the processing

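The counts of genes called in growth phase with glycerol, with pH, with phase and between the strains were within 1.5 times of those reported under every alternative run, and no fold change of a called gene changed sign. With the replicate number as a block, 88 of 88 gene calls over the 11 contrasts were the same as without it, and the numbers did not pair the libraries: same-numbered deviations correlated at -0.493 to 0.446, and 15 of 35 libraries correlated best with their own number. For the difference in the glycerol effect between the strains during growth, 1 gene (PDA1) was called in place of 0 with no expression filter, with DESeq2 and with limma on the deposited log2 values, and 0 to 1 when single libraries were left out. For the glycerol effect in stationary phase, leaving out the 5 libraries that stood apart gave 2 called genes in place of 1. For the difference in the glycerol effect between phases it gave 6 in place of 3, and leaving out single libraries gave 3 to 6, with 6 reached without DSM-21175 glycerol growth replicate 2. The share of all genes called was not computed for the fits that leave out libraries, the unfiltered table, DESeq2 or limma. The IDP strain difference with phase lost its call with RLE scaling (0.27, adjusted p = 0.0695), DESeq2 (adjusted p = 0.0592) and only the libraries compared (adjusted p = 0.0569). It was also lost without any 1 of 13 libraries, at 0.13 to 0.31: in DSM-3286, glycerol growth replicates 1 and 3, glucose growth replicate 2, all glycerol stationary pH 5.5 replicates and glucose stationary pH 5.5 replicate 3; in DSM-21175, glycerol growth replicate 2, glucose growth replicate 3, all glycerol stationary pH 5.5 replicates and glucose stationary pH 5.5 replicate 3. Without the 5 libraries that stood apart, 80 of 88 calls were the same, 7 were gained and 1, that of IDP, was lost. Among called values, KGD1 with phase (0.16 in place of 0.25) and the SDH1 strain difference with phase (-0.65 in place of -0.43) moved by over 1.5 times. The pH difference of the PDB1 to PDA1 ratio had an unadjusted exact permutation p of 0.0235 to 0.0424 when 1 of 4 stationary libraries was left out. The cause of these shifts was not tested. Depth limits none of these genes, since the lowest count was 1791 reads, while 2 or 3 replicates per group limit the resolution of single pairs of groups.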
